A study of Mus musculus with 18 samples.

Results

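The 9 genes described here are the Janus kinases Jak1, Jak2, Jak3 and Tyk2 and 5 protein tyrosine phosphatases that remove phosphate from these kinases, their receptors or the STATs: Ptpn1 (PTP1B), Ptpn2 (TC-PTP), Ptpn6 (SHP-1), Ptpn11 (SHP-2) and Ptprc (CD45). They were taken by symbol from a table of raw RNA-seq counts with 50600 gene rows in 18 samples, and all 9 were found and passed the filter on low counts in both tissues. The lowest count of any of them in any library was 963, for Ptpn2.

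Cytokine receptors of the IL-2 family have no kinase activity of their own. Janus kinases bound to their tails phosphorylate each other, the receptor and then the STATs, and the cytoplasmic phosphatases PTP1B, TC-PTP and SHP-1 are known to reverse these steps. SHP-2 mostly transmits growth signals to the Ras pathway, and CD45 is a transmembrane phosphatase that controls Src-family kinases and can also act on JAKs. The IL-2 receptor β chain carries JAK1 and the common γ chain carries JAK3. JAK2 is among the kinases of the interferon-γ and IL-12 receptors, and TYK2 is among those of the interferon-α/β and IL-12 receptors.

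The study asked how the loss of CD25, the IL-2 receptor α chain encoded by Il2ra, altered regulatory T cells (Tregs) in the thymus and the spleen. All samples were FACS-purified Foxp3+ Tregs from C57BL/6 mice, and each sample was 1 mouse. The 5 thymic CD25 KO samples came from CD25 flox/Foxp3-YFP/Cre mice, in which Cre is driven from the Foxp3 locus. These mice were "cured" by an injection of WT splenocytes from CD45.1 or CD90.1 congenic donors soon after birth, and were used at 3 to 4 weeks of age. The 5 thymic WT samples came from age-matched Foxp3/RFP reporter mice. For the 4 splenic CD25 KO samples, mice of genotype CD25 flox/Foxp3eGFP-Cre-ERT2/R26Y were given tamoxifen at 7 to 10 weeks of age and used 10 to 14 days later, and the 4 splenic WT samples were reporter controls that also received tamoxifen. The CD45.1 donors carried another allele of Ptprc, and counts per gene do not separate alleles. Cells were sorted on reporter expression and surface markers, a gate that leaves out donor cells without a reporter.

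Thymic libraries held 17239774 to 23993674 counts and splenic libraries 25258341 to 32639570. Values are in CPM, the counts of a gene relative to the TMM-scaled size of its library over the 18 libraries, given as the mean ± SD, and DE genes were those with an adjusted p below 0.01 in the quasi-likelihood test of edgeR, with Benjamini-Hochberg adjustment over all genes tested. The targeted gene was lower in every CD25 KO library. Il2ra measured 613 ± 73.2 CPM in thymic WT and 162 ± 88.1 CPM in thymic CD25 KO Tregs (n = 5 each), and 524 ± 23.9 against 186 ± 17.3 CPM in the spleen (n = 4 each). Thymic CD25 KO mice 2 and 4 had higher Il2ra counts (280 and 234 CPM) than the other 3, which had at most 105 CPM. They also had more of the proliferation gene Mki67, at 506 and 347 CPM where the other 3 had 69.1 to 105 CPM and thymic WT mice 197 to 456 CPM. Cre removes a single exon of Il2ra, so that transcripts of the inactive allele still count, and these values do not measure functional CD25. The 6 marker genes of CD4 T cells and Tregs (Cd3e, Cd4, Foxp3, Ikzf2, Ctla4 and Tnfrsf18) summed to between 2803 and 3600 CPM in all 18 libraries. Single genes among them moved with genotype, in part in opposite directions. The splenic sums did not overlap, at 2803 to 3007 CPM in WT and 3241 to 3600 CPM in CD25 KO libraries. Foxp3 was lower on CD25 loss, at 400 to 578 against 270.0 to 336 CPM in the thymus and 322 to 345 against 204 to 239 CPM in the spleen. Ikzf2 (Helios) was higher, at 1044 to 1721 against 1539 to 1973 CPM, with overlap, in the thymus and 1144 to 1366 against 1477 to 1688 CPM in the spleen. Cd3e (means 649 and 475 CPM), Cd4 (493 and 411), Ctla4 (72.5 and 51.7) and Tnfrsf18 (152 and 111) were lower in the thymus, without overlap. Cd3e (593 and 698 CPM) and Cd4 (571 and 711) were higher in the spleen without overlap. Splenic Ctla4 (52.8 and 57.9) and Tnfrsf18 (97.3 and 108) overlapped. Whether these markers bear on the 9 genes was not tested. The tissues differed in mouse model, age and the date in the column headers, which cannot be told apart from the tissue. Within the thymus, the Foxp3 allele (YFP/Cre or RFP) changed with genotype, and a transfer of splenocytes is stated for the CD25 KO mice alone. Neither can be told apart from CD25 loss in the thymic comparison. Sex differed too, since reads from the Y-linked gene Ddx3y were present in 3 of 5 thymic WT, 4 of 5 thymic CD25 KO and no splenic libraries. In addition, 31 genes with a mean of at least 200 counts in the thymus were listed at 0 in all 8 splenic libraries, and only 1 of these lies on the Y chromosome. They include Srsf1 (694 counts on average in the thymus), Ppp1ca (2615) and Coro1b (1255), which most cells express. None of the 9 genes is among them, but levels set side by side across the tissues carry this limit.

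The promoters of Jak2 and Ptpn11 are shown because these were the genes that were DE in the spleen, each higher in CD25 KO Tregs. Both are from RefSeq on GRCm38.p6, cover the 250 bases before the RefSeq start and read 5′ to 3′ on the strand of the gene. Jak2 lies on the plus strand, with the window at chr19:29251553-29251802, and Ptpn11 lies on the minus strand, with the window at chr5:121191398-121191647. Capitals mark the GC-box letters GGGCGG on either strand.
Jak2: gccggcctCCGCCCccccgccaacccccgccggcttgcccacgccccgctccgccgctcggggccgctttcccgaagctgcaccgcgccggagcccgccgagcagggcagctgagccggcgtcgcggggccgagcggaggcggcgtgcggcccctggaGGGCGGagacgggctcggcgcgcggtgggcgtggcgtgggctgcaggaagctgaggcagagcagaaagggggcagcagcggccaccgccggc
Ptpn11: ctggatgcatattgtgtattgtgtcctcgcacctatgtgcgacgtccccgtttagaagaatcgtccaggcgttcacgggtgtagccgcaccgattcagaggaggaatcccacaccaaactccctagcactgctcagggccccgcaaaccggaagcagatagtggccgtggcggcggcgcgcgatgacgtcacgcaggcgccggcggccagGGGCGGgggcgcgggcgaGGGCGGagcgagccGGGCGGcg
The Jak2 window held 2 GC boxes in 80.8% G+C, and the Ptpn11 window held 3 in 66.8% G+C. A window for 8 of the 9 genes was matched by symbol, Ptprc with 2. GGGCGG occurred in 32.7% of all 32841 promoter windows of this length and in those of the 7 matched genes other than Ptprc, whose windows were 31.6% and 36.8% G+C. The STAT letters TTCNNNGAA (in 7.02% of all windows), the forkhead letters GTAAACA (3.17%) and the E-box CACGTG (6.02%), each searched on both strands, occurred in no window of the 8 genes.

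In the spleen, Jak2 and Ptpn11 were higher in CD25 KO Tregs, by 1.39-fold and 1.40-fold, and the other 7 genes were not DE. These were 2 of 9 genes, where 9.45% of all 17463 genes tested were DE, 5.9% higher and 3.55% lower. Jak2 (ENSMUSG00000024789.12, chromosome 19 of GRCm38, 29251828 to 29313080) encodes a kinase of the interferon-γ and IL-12 receptors. It measured 233, 223, 225 and 217 CPM in the 4 WT mice. In the 4 CD25 KO mice it measured 290, 329, 299.6 and 330.2 CPM. Every CD25 KO value was thus above every WT value. The log2 fold change was 0.48 (SE 0.0543, adjusted p = 2.15e-05, edgeR with Benjamini-Hochberg adjustment).

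Ptpn11 (ENSMUSG00000043733.14, chromosome 5, 121130533 to 121191397), which encodes SHP-2, measured 147, 149, 147 and 135 CPM in splenic WT Tregs and 187, 222, 207 and 193 CPM in splenic CD25 KO Tregs. The groups did not overlap, although the WT mouse at 135 CPM stood below the other 3. The log2 fold change was 0.49 (SE 0.0582, adjusted p = 3.17e-05, edgeR with Benjamini-Hochberg adjustment). Both calls were kept in each of the 8 alternative analyses and on leaving out each of the 8 mice in turn, where the log2 fold changes stayed between 0.43 and 0.51 for Jak2 and between 0.44 and 0.52 for Ptpn11.

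Ptpn1 and Ptprc in the spleen also had groups that did not overlap, so that 4 of the 9 genes did so where 20.4% of all genes tested did, but neither passed the threshold. Ptpn1 measured 234, 230.0, 246 and 240.3 CPM in WT against 263, 284, 267 and 266 CPM in CD25 KO Tregs, a log2 fold change of 0.19 (SE 0.0474, adjusted p = 0.0123). It passed in DESeq2 (adjusted p = 0.00132) and after a correction for GC content (0.22, adjusted p = 0.00987), which called 9.11% of all genes. Ptprc measured 2126 to 2270 CPM in WT, against 2311 to 2596 CPM in CD25 KO Tregs, a log2 fold change of 0.13 (SE 0.0561, adjusted p = 0.125).

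The kinases carried by the IL-2 receptor itself showed small differences in the spleen. Jak1, by far the most counted of the 4 kinases, measured 887 ± 32.4 CPM without and 883 ± 38.8 CPM with CD25 loss, with a 95% confidence interval of the log2 fold change from -0.12 to 0.11. For Jak3 the interval ran from -0.04 to 0.25, for Tyk2 from -0.14 to 0.13, for Ptpn2 from -0.06 to 0.20 and for Ptpn6 from -0.11 to 0.13. The groups of these 5 genes overlapped.

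**Figure D1:**
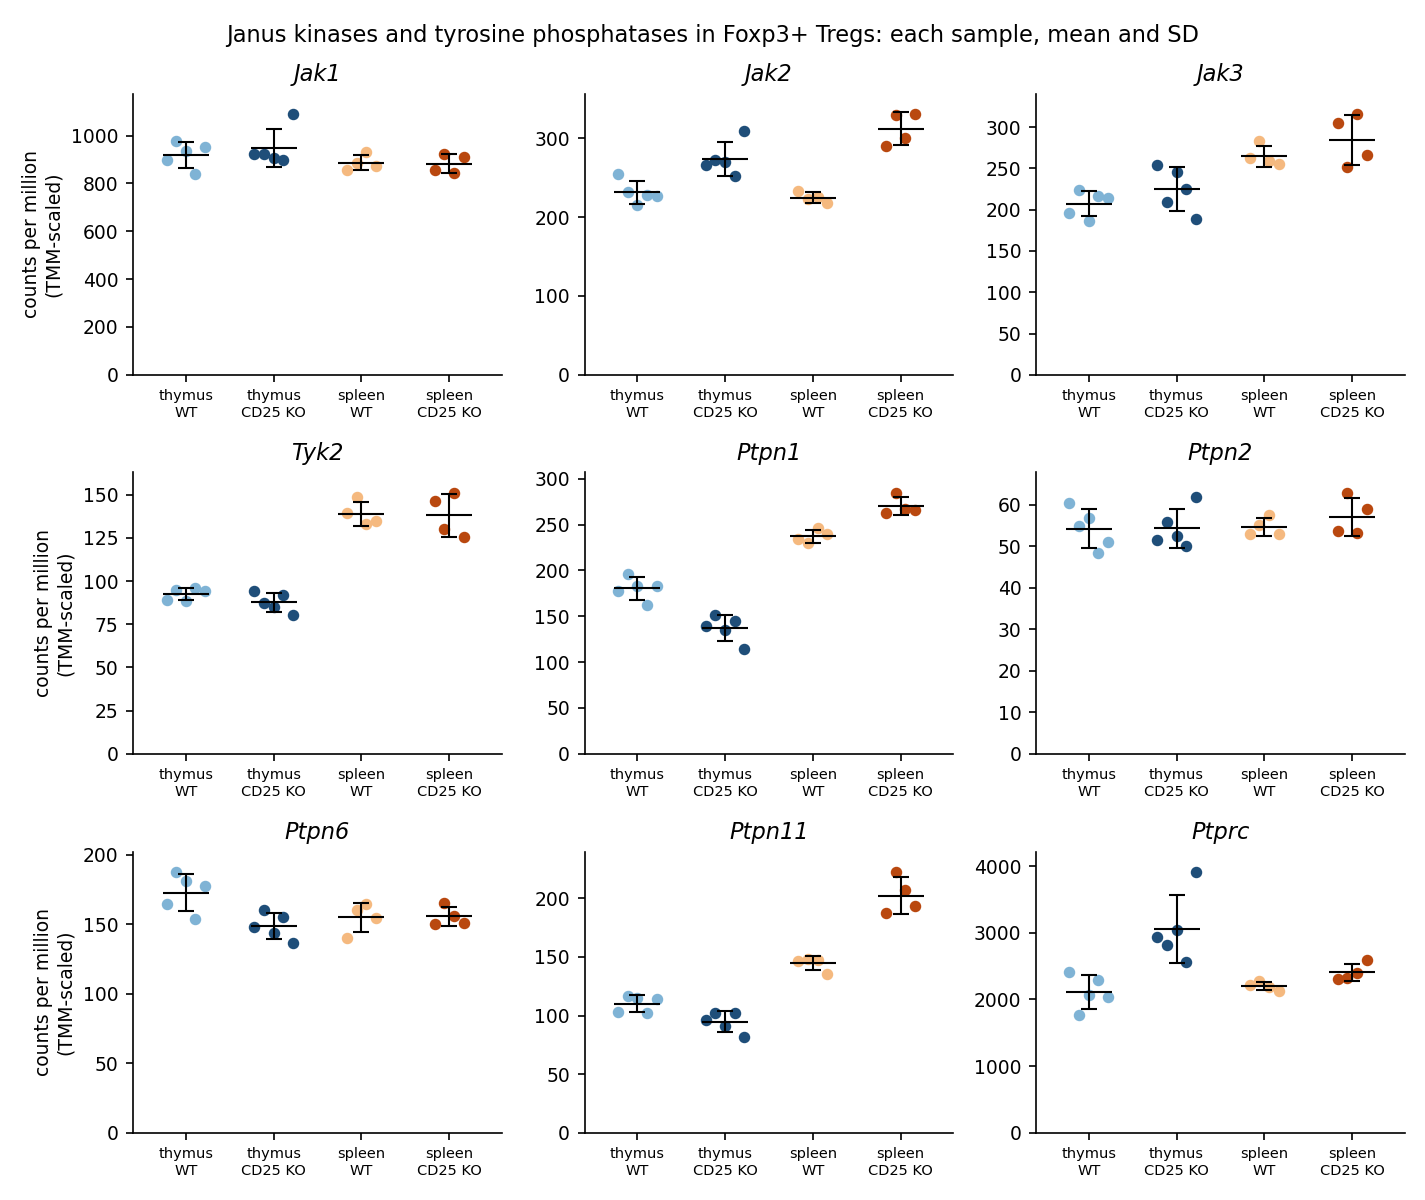
TMM-scaled CPM (y axis, from 0) of each gene in thymic WT and CD25 KO (5 mice each) and splenic WT and CD25 KO Tregs (4 mice each); points are mice and bars the mean and SD. Jak2 and Ptpn11 in the splenic CD25 KO mice lie above all splenic WT mice, and Ptpn1 in the thymic CD25 KO mice (115 to 152 CPM) lies below all thymic WT mice (162 to 196 CPM).

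Some markers of other cells moved with genotype in the spleen. The B cell list of 6 genes summed to 444 to 553 CPM in WT and 604 to 731 CPM in CD25 KO libraries. Nearly all of this was Ighm, with 412 to 519 CPM in WT and 566 to 686 CPM in CD25 KO libraries, whereas the B cell antigen gene Ms4a1 had at most 12 counts in any splenic library. Cd22, another gene of the list, was also higher without overlap, with 9.00 to 15.3 CPM in WT and 17.9 to 24.7 CPM in CD25 KO libraries. Cd79a, another B cell gene, went the other way, with 4.92 to 6.96 CPM in WT and 3.83 to 4.33 CPM in CD25 KO libraries. Myeloid markers (6 genes) summed to 12.0 to 18.96 CPM in WT and 16.8 to 23.3 CPM in CD25 KO libraries, with overlap. Among them Lyz2 did not overlap (4.41 to 9.49 and 11.5 to 15.1 CPM), and Itgam had a higher mean in CD25 KO (0.185 and 0.486 CPM). Means went the other way for Csf1r (6.45 in WT and 5.48 CPM in CD25 KO), Adgre1 (1.47 and 0.843), Cd14 (0.197 and 0.0703) and Fcer1g (0.912 and 0.777). NK cell markers (3 genes, 2 of them at 0 in every splenic library) summed to 0.366 to 2.60 CPM in WT and 3.04 to 5.77 CPM in CD25 KO libraries. In bulk samples, more cells of a type and more RNA per cell cannot be told apart, and whether these reads bear on Jak2 or Ptpn11 was not tested.

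In the thymus, Ptpn1 was lower and Ptprc higher in CD25 KO Tregs, by 1.30-fold and 1.46-fold. Again 2 of the 9 genes were DE, where 6.16% of all 16986 genes tested were, 3.17% higher and 2.99% lower. These same 2 genes had groups that did not overlap, as 16.4% of all genes did. Ptpn1 (ENSMUSG00000027540.13, chromosome 2, 167932057 to 167979385), the phosphatase known to act on JAK2 and TYK2, measured 177, 196, 184, 162 and 183 CPM in the WT mice. In the CD25 KO mice it measured 139.6, 152, 136, 145 and 115 CPM. The log2 fold change was -0.38 (SE 0.0742, adjusted p = 0.00609, edgeR with Benjamini-Hochberg adjustment).

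Ptprc (ENSMUSG00000026395.16, chromosome 1, 138062861 to 138175708), the CD45 gene, measured 2405, 1764, 2062, 2296 and 2037 CPM in thymic WT Tregs. It measured 2942, 2813, 3038, 2554 and 3906 CPM in thymic CD25 KO Tregs, where mouse 5 was well above the other 4. The log2 fold change was 0.54 (SE 0.117, adjusted p = 0.00889). Without mouse 5 it was 0.44 (adjusted p = 0.00794).

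Both thymic calls were close to the threshold. That for Ptpn1 was lost without WT mouse 1 (adjusted p = 0.0125), 2 (0.0213), 3 (0.0182) or 5 (0.0197) and without CD25 KO mouse 1 (0.0156) or 3 (0.0179), with log2 fold changes from -0.42 to -0.32 over all 10 omissions. That for Ptprc was lost without WT mouse 2 (adjusted p = 0.0238), 3 (0.0239), 4 (0.0115) or 5 (0.0226) and without CD25 KO mouse 1 (0.0181), 2 (0.0119) or 3 (0.0224), with log2 fold changes from 0.44 to 0.60. With CD25 KO mice 2 and 4 both left out, an alternative chosen after seeing the data, both calls were kept, at -0.47 for Ptpn1 (adjusted p = 0.00201) and 0.65 for Ptprc (adjusted p = 0.00285).

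The thymic differences also followed base composition. Over 16945 genes, the log2 fold change in the thymus had a Spearman rho of -0.41 with the GC content of the gene, a description across genes that are not independent. In the spleen rho was -0.17. The slope of a gene's log2 level on GC content ranged from -0.35 to -0.08 per 10 percentage points in thymic CD25 KO libraries, lowest in mouse 5, and from -0.04 to 0.21 in thymic WT libraries. Ptprc, at 40.0% GC, is richer in A and T than most genes tested, while Ptpn1 (55.5%) and Jak3 (60.8%) are GC-rich. After a correction for GC content in each library, which called 4.46% of genes in the thymus, the log2 fold change of Ptprc was 0.26 (adjusted p = 0.0339) and that of Ptpn1 -0.23 (adjusted p = 0.0162), neither past the threshold, and Jak3 was DE at 0.31 (adjusted p = 0.00914).

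**Figure D2:**
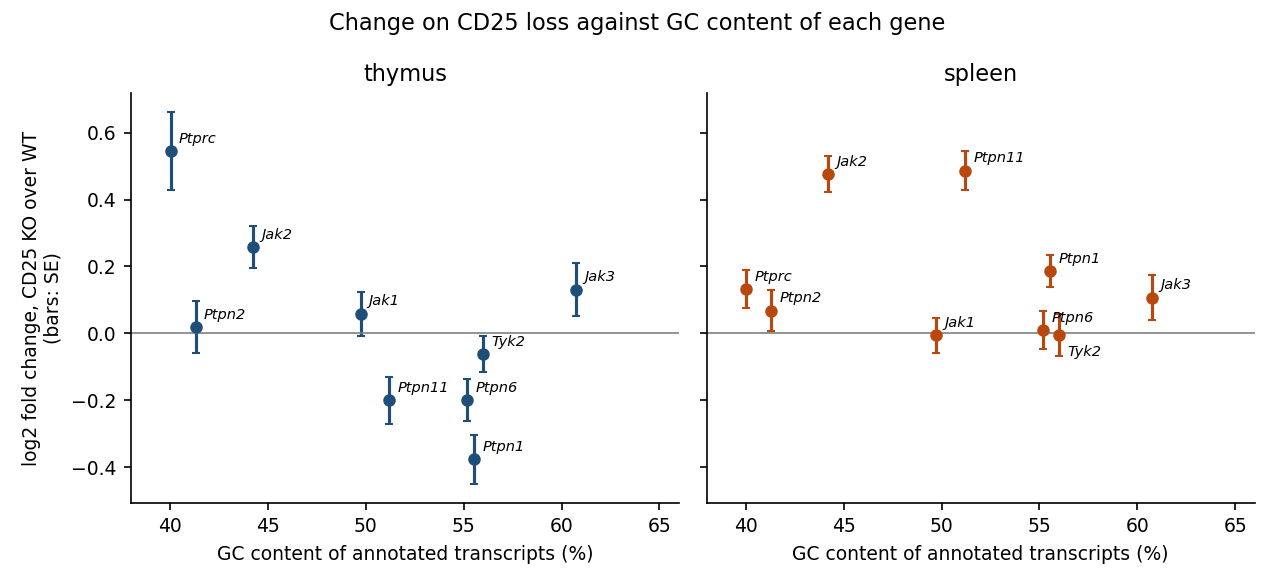
Log2 fold change of CD25 KO over WT (y axis, bars SE) against the GC content of the annotated transcripts of each gene (x axis, %), for thymus (left) and spleen (right). In the thymus Ptprc and Jak2, with 40.0% and 44.2% GC, lie above 0, and Ptpn1, Ptpn6 and Tyk2, with 55.2% to 56.0% GC, lie below it. Jak3, with 60.8% GC, lies above 0 at 0.13, and Ptpn2, with 41.3% GC, lies near it at 0.02. Jak1 (49.7% GC) lies at 0.06 and Ptpn11 (51.2% GC) at -0.20.

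The remaining 7 genes were not DE in the thymus. Jak2 came nearest, with 231 ± 14.4 CPM against 274 ± 21.0 CPM on CD25 loss, where the highest WT mouse (255 CPM) overlapped with the lowest CD25 KO mouse (252 CPM). Its log2 fold change was 0.26 (SE 0.0638, adjusted p = 0.0154). Jak2 passed the threshold in DESeq2 (adjusted p = 0.00288) and in a fit of all 18 samples (0.00429), where both tissues share an estimate of the spread. After the correction for GC content its log2 fold change was 0.14. Ptpn6, the SHP-1 gene, measured 173 ± 13.5 against 149 ± 9.29 CPM (log2 fold change -0.20, adjusted p = 0.0391). Ptpn11 measured 110.2 ± 7.20 against 94.8 ± 8.78 CPM (log2 fold change -0.20, adjusted p = 0.0562).

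Jak1 in the thymus measured 921 ± 54.1 CPM in the WT group against 948 ± 79.8 CPM in the KO group. Its 95% confidence interval of the log2 fold change ran from -0.08 to 0.20. The intervals were -0.04 to 0.30 for Jak3, -0.18 to 0.05 for Tyk2 and -0.15 to 0.19 for Ptpn2. B cell markers moved the other way than in the spleen, with a sum of 107 to 136 CPM in thymic WT and 59.2 to 76.9 CPM in thymic CD25 KO libraries, again mostly Ighm. The part of these reads in the thymic values was not tested.

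**Figure D3:**
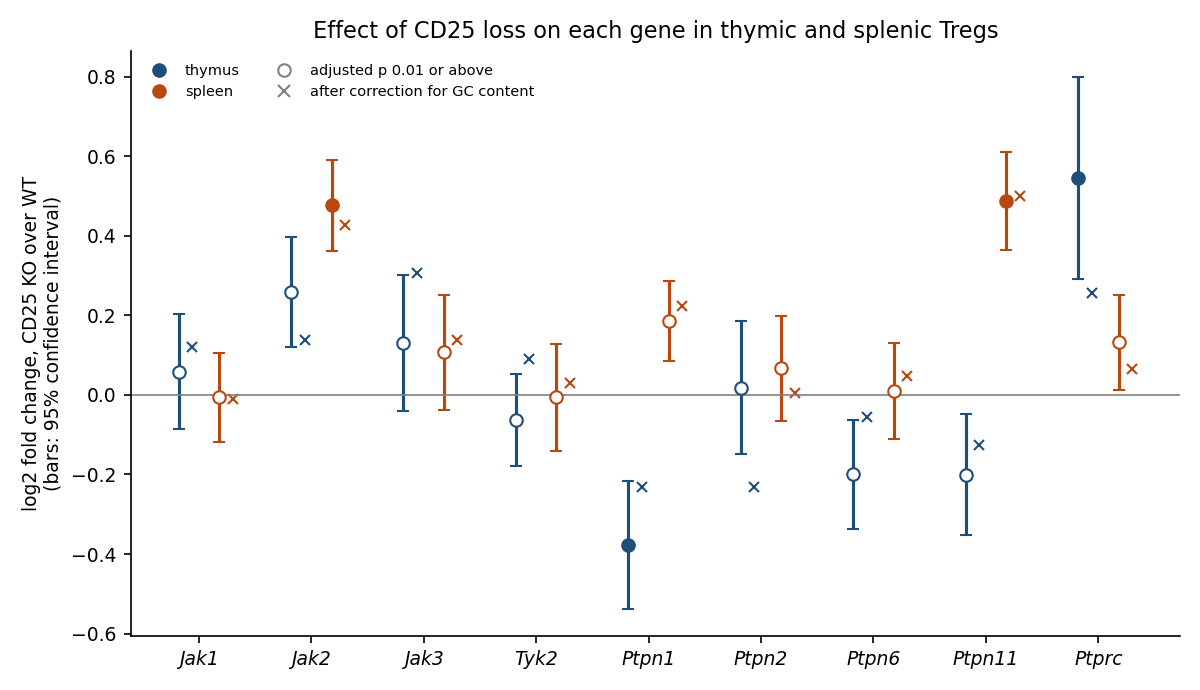
Log2 fold change of CD25 KO over WT (y axis) for each gene (x axis) in thymus (blue) and spleen (orange); bars are 95% confidence intervals, filled points passed an adjusted p of 0.01, and crosses are the values after correction for GC content. Ptpn1 and Ptpn11 lie on opposite sides of 0 in the tissues, at -0.38 and -0.20 in the thymus and 0.19 and 0.49 in the spleen.

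The difference between CD25 KO and WT Tregs in Ptpn1 and Ptpn11 was not the same in the thymus and the spleen. Mouse model and, in the thymus, Foxp3 allele and cell transfer cannot be told apart from it. In an interaction test over the 18 samples, the log2 fold change of the spleen minus that of the thymus was 0.58 for Ptpn1 (SE 0.0944, adjusted p = 0.000373) and 0.70 for Ptpn11 (SE 0.0971, adjusted p = 7.66e-05, edgeR with Benjamini-Hochberg adjustment). Of 18686 genes tested, 6.98% differed in this way, and 4.5% were higher on the side of the spleen. Both calls were kept on leaving out each of the 18 mice and in all alternatives, of which the threshold of 0.05 could not lose them. After the correction for GC content (7.26% of genes called) the differences were 0.46 and 0.62. The difference was 0.23 for Jak2 (adjusted p = 0.0689), -0.40 for Ptprc (adjusted p = 0.0585) and 0.22 for Ptpn6 (adjusted p = 0.0885), so a difference between the tissues was not shown for these. For Jak1, Jak3, Tyk2 and Ptpn2 it was between -0.05 and 0.07 with an adjusted p of at least 0.606.

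WT Tregs of the 2 tissues differed in Tyk2, Jak3, Ptpn1 and Ptpn11, all higher in the spleen. These were 4 of 9 genes, a share that stands beside 40.4% of all genes DE in this comparison and 21% higher, and the same 4 had groups that did not overlap, as 46% of all genes did. Tyk2, a kinase of the interferon-α/β and IL-12 receptors, measured 92.5 ± 3.58 CPM in the thymus and 139 ± 6.94 CPM in the spleen. Its log2 fold change was 0.58 (SE 0.0607, adjusted p = 1.02e-07, edgeR). The log2 fold change was 0.35 for Jak3 (SE 0.0826, adjusted p = 0.00132), 0.40 for Ptpn1 (SE 0.0664, adjusted p = 4.69e-05) and 0.39 for Ptpn11 (SE 0.0684, adjusted p = 7.31e-05). Jak1, Jak2, Ptpn2 and Ptprc had log2 fold changes between -0.05 and 0.06, and Ptpn6 one of -0.16 (adjusted p = 0.0423). Tyk2 shares 554 exonic bases with an antisense gene, Ptpn6 195 and Jak1 4, and Jak3 shares 404 bases with Insl3 on the same strand. The strand setting of the counting is not given in the sources used here, so reads from these stretches cannot be assigned with certainty.

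Per kb of exon, Jak1 and Ptprc were the highest of the 9 genes in every group and their samples overlapped. In splenic WT Tregs the mean level was 123 CPM per kb for Jak1, 120.1 for Ptprc, 55.2 for Ptpn6, 49.5 for Jak3, 44.7 for Jak2, 42.9 for Ptpn1, 20.2 for Tyk2, 19.3 for Ptpn11 and 17.5 for Ptpn2. The ranges of neighbours in this order overlapped except between Ptprc and Ptpn6, Jak3 and Jak2, and Ptpn1 and Tyk2. In splenic CD25 KO Tregs Jak2 (62.1 CPM per kb) stood behind Jak1 and Ptprc alone and Ptpn11 (27.0) stood above Tyk2 (20.1), while the ranges of Jak2 and Ptpn6 overlapped. With the length of the longest transcript Jak2 was 6th of the 9 in this group, and not 3rd.

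In thymic WT Tregs the order was Jak1 (127.4 CPM per kb), Ptprc (115), Ptpn6 (61.6), Jak2 (46.0), Jak3 (38.8), Ptpn1 (32.6), Ptpn2 (17.4), Ptpn11 (14.7) and Tyk2 (13.5). The ranges of Jak1 and Ptprc, Jak3 and Ptpn1, Ptpn2 and Ptpn11, and Ptpn11 and Tyk2 overlapped. The place of Ptprc depends on the length used, since its annotated exons cover 18313 bases and its longest transcript 5740. With the longest transcript, Ptprc was first in splenic WT Tregs at 383 CPM per kb, ahead of Jak1 at 181.

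**Figure D4:**
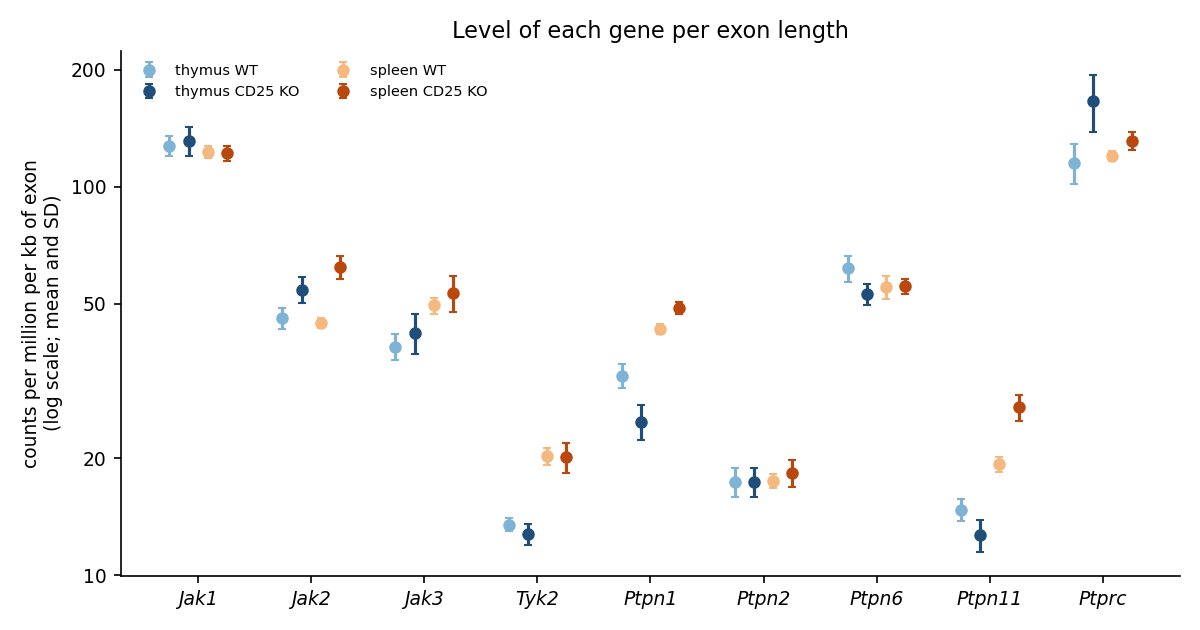
Mean level of each gene per kb of exon (y axis, log scale, CPM per kb; bars SD) in the 4 groups (5 thymic and 4 splenic mice each). Jak1 and Ptprc lie highest, between 115 and 167 CPM per kb, and Tyk2, Ptpn11 and Ptpn2 lowest, between 12.7 and 27.0.

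The balance among the Janus kinases shifted toward Jak2 in the spleen. As a share of the summed level per kb of the 4 kinases, Jak2 made up 18.8% ± 0.661 in the splenic WT group and 24.1% ± 1.39 on CD25 loss, and the ranges (18.4 to 19.8% and 22.6 to 25.3%) did not overlap. Jak1 was 51.8% ± 1.33 and 47.4% ± 1.77, Jak3 20.9% ± 0.784 and 20.7% ± 2.34, and Tyk2 8.53% ± 0.395 and 7.82% ± 0.758. In the thymus Jak2 made up 20.4% ± 1.39 and, on CD25 loss, 22.6% ± 0.7996, with overlapping ranges. Shares of one sum move together, and this one follows from the levels above. The percentages depend on the length used, since Jak2 has 5030 bases by exons and by longest transcript, but Jak1 7227 and 4906. Per kb of the longest transcript Jak2 (44.7 in splenic WT and 62.1 in CD25 KO Tregs) lay below Jak3 (65.4 and 70.4).

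Across the 18 samples, with the mean of each tissue subtracted, the genes most like Jak2 in log2 CPM were Lamp2 (r = 0.96), Gpr155 (0.95) and Mapre2 (0.92), of 8626 candidates. For Ptpn11 they were Zap70 (0.95), Nfatc1 (0.93) and Dap (0.92), and for Ptpn1 Iqgap1 (0.98), Alkbh5 (0.97) and Lman2 (0.97). For Ptprc they were Zup1 (0.98), Scfd1 (0.98) and Col4a3bp (0.98), with 39.7%, 40.4% and 44.6% GC. Among the 9 genes themselves, Ptpn1 rose and fell with Ptpn6 (r = 0.85) and Ptpn11 (0.78) and opposite to Ptprc (-0.83). Between Jak2 and Ptpn11 r was 0.38. These correlations are descriptions, since all points share the libraries and their GC slopes.

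With the mean of each of the 4 groups subtracted, which leaves the differences between mice of a group, the nearest genes were Nck1 (0.93), Slf2 (0.93) and Cul2 (0.92) for Jak2, and Polr1a (0.89), Ddb1 (0.88) and Gars (0.87) for Ptpn11. For Ptpn1 they were Wasf2 (0.96), Gnai2 (0.95) and Eif3b (0.95), and for Ptprc Zup1 (0.98), Zfp738 (0.95) and Col4a3bp (0.95). For Jak3 they were Zswim8, Rgp1 and Amigo3 (0.92 to 0.93), and for Ptpn2, Plaa, Zc3h15 and Vps35 (0.88 to 0.90). For Jak1 they were Mrpl44, Ets1 and Rab2a (0.93 to 0.95), for Tyk2 Map4k1, Pcnx3 and Sh2b1 (0.87 to 0.90), and for Ptpn6 Eno1, Kmt5a and Nploc4 (0.91 to 0.92). Jak2 and Ptpn11 had an r of -0.39 with each other on this scale.

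Of 124 other genes of the pathway, 102 were tested in the thymus, where 3 rose and 11 fell, and 98 in the spleen, where 12 rose and 11 fell. These were 13.7% and 23.5% of those tested, beside 6.16% and 9.45% of all genes. The thymic median of their log2 fold changes was -0.09 and the splenic median 0.03, against -0.00 and -0.01 over all genes tested. Among the listed genes, Ptprcap, which encodes a partner of CD45, and Il12rb1 had at least 102 counts in every thymic library but at most 1 in any splenic library, and were not tested in the spleen.

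Among 33 other protein tyrosine phosphatases, 19 were tested in each tissue. In the thymus none rose and 2 fell, and in the spleen 4 rose and none fell (edgeR), where 2.99% of all genes fell in the thymus and 5.9% rose in the spleen. DESeq2 called 4 lower in the thymus and 5 higher in the spleen, and none the other way. At an unadjusted p below 0.05, none was higher in the thymus and 2 were lower in the spleen. Ptpn5, known as the brain phosphatase STEP, fell from 4.97 ± 1.19 to 0.922 ± 0.257 CPM in the thymus (log2 fold change -2.39, adjusted p = 0.000133) and rose from 12.1 ± 2.12 to 19.1 ± 3.47 CPM in the spleen (0.66, adjusted p = 0.00265). Ptprj (CD148), a receptor phosphatase that acts on Src-family kinases, fell from 16.1 ± 2.67 to 8.21 ± 2.13 CPM in the thymus (-0.95, adjusted p = 0.00534) and rose from 52.3 ± 4.95 to 73.7 ± 9.37 CPM in the spleen (0.49, adjusted p = 0.000732). On leaving out 1 mouse, the thymic call for Ptprj was lost in 6 of 10 omissions (adjusted p up to 0.0119) and the splenic call for Ptpn5 in 2 of 8 (up to 0.0121). The difference between the tissues passed for both, at 3.07 for Ptpn5 (adjusted p = 7.10e-07) and 1.46 for Ptprj (adjusted p = 0.000128). The other 2 that rose in the spleen were Ptpn3 (0.53, lost in 4 of 8 omissions) and Ptpn22 (0.34), a negative regulator of T cell receptor signalling named here after its values were seen.

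Among 26 other cytoplasmic tyrosine kinases, 22 were tested in each tissue, where 1 rose and 1 fell in the thymus and 2 rose and 3 fell in the spleen. The thymic share, 9.09%, was near the 6.16% of all genes, and the splenic share was 22.7% beside 9.45%. In the thymus Yes1 rose by 0.98 (log2, adjusted p = 0.00424) and Src fell by 0.94 on the log2 scale (adjusted p = 0.00795), and neither passed after the correction for GC content. The call for Yes1 was lost in 4 and that for Src in 8 of 10 omissions of 1 mouse. In the spleen Zap70, the kinase recruited to the T cell receptor, rose from 245 ± 8.38 to 303 ± 14.4 CPM (0.31, adjusted p = 0.000537), and Lyn, a kinase typical of B and myeloid cells, rose from 3.64 ± 0.772 to 6.94 ± 1.30 CPM (0.94, adjusted p = 0.00116). The B cell sums given above were higher in the same libraries, while the myeloid sums overlapped between WT and CD25 KO. The part of such cells in Lyn was not tested. Ptk2 (-0.95), Txk (-0.51) and Src (-0.47) fell in the spleen.

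The 6 genes Ptprcap, Hnrnpll, Lck, Fyn, Csk and Pag1 act around CD45, and none of those tested was DE in either tissue, 6 in the thymus and 5 in the spleen (edgeR). At an unadjusted p below 0.05 the thymus had 1 such gene and the spleen had 2, while DESeq2 called none in thymic and 1 in splenic Tregs. Lck, the substrate of CD45 in T cells, measured 558 ± 42.0 and 542 ± 30.8 CPM in thymic WT and CD25 KO Tregs and 618 ± 34.4 and 612 ± 18.2 CPM in the spleen. Of 11 genes whose proteins bind SHP-1 or SHP-2, none of 10 tested was DE in the thymus with edgeR or DESeq2 (2 at an unadjusted p below 0.05), and 2 rose and 1 fell of 9 in the spleen. The splenic share was 33.3%, beside 9.45% of all genes, and 6.16% of all genes were DE in the thymus. Pdcd1, which encodes the inhibitory receptor PD-1 that recruits SHP-2, rose from 99.0 ± 11.4 to 170.3 ± 19.7 CPM in the spleen (log2 fold change 0.78, adjusted p = 1.44e-05). Grb2, an adaptor that joins SHP-2 to the Ras pathway, rose by 0.25, a call lost in 5 of 8 omissions of 1 mouse (adjusted p up to 0.0185), and Pecam1 fell by 0.37 on the log2 scale.

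Of 25 receptor chains that use Janus kinases, 22 were tested in the thymus, where 4 fell and none rose with edgeR, while DESeq2 called 1 higher and 2 were higher at an unadjusted p below 0.05. The share with edgeR was 18.2%, beside 6.16% of all genes. Those that fell were Il9r (log2 fold change -1.89, adjusted p = 0.00266), Il10ra (-1.86, adjusted p = 0.00266), Il2rb (-0.79, adjusted p = 0.00201) and, outside the 3 largest changes, Il4ra (-0.46). Il2rb, the partner of JAK1, measured 632 ± 67.3 CPM in thymic WT and 360.0 ± 66.1 CPM in thymic CD25 KO Tregs, and 740 ± 19.6 against 648 ± 38.1 CPM in the spleen, where the change did not pass (adjusted p = 0.0223). In the spleen 2 of 20 receptors rose and 4 fell, a share of 30% beside 9.45% of all genes. The 2 chains of the interferon-γ receptor moved in opposite directions, Ifngr1 from 195 ± 5.18 to 285 ± 43.8 CPM (0.55, adjusted p = 0.000237) and Ifngr2, which binds JAK2, from 42.7 ± 4.16 to 31.5 ± 2.06 CPM (-0.44, adjusted p = 0.00067). Il13ra1 rose (0.81, lost in 4 of 8 omissions), while Il6ra (-0.46), Il4ra (-0.40) and Ifnar1 (-0.22, named after its values were seen) fell.

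Stat4, the STAT of the IL-12 receptor, rose in the spleen (0.24, adjusted p = 0.00611), a call lost in 5 of 8 omissions of 1 mouse. Stat5a and Stat5b, the STATs of IL-2, were not DE in either tissue. Among 19 SOCS, PIAS and adaptor genes that regulate JAK signalling, 1 rose and 4 fell in the thymus and 1 rose and 3 fell in the spleen. These were 26.3% and 21.1% of those tested, beside 6.16% and 9.45% of all genes. Socs2, Socs1 and Cish, which are induced by STAT5, fell in both tissues. In the thymus their log2 fold changes were -3.20, -0.92 and -0.85, and in the spleen they were -0.98, -0.45 and -0.68. Socs3 (-0.80, named after its values were seen) fell and Stam (0.42, lost in 3 of 10 omissions) rose in the thymus, and Socs5 (0.34) rose in the spleen.

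**Figure D5:**
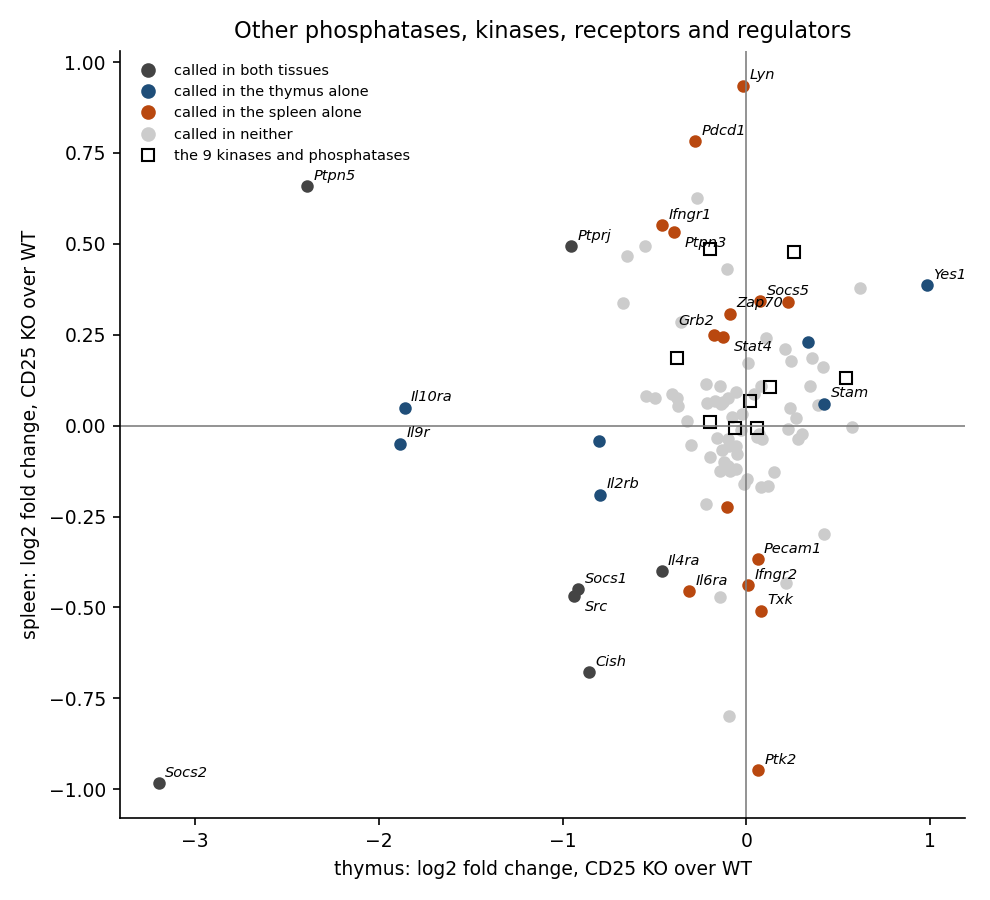
Log2 fold change of CD25 KO over WT in the thymus (x axis) and spleen (y axis) for the listed pathway genes tested in both tissues (circles, coloured by where the adjusted p was below 0.01) and for the 9 kinases and phosphatases (squares). Ptpn5 and Ptprj lie to the upper left, lower in the thymus (-2.39 and -0.95) and higher in the spleen (0.66 and 0.49), and Socs2, Cish and Socs1 lie to the lower left.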

How the data were processed

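The deposited values are raw read counts per gene. Per the study's methods and the submitters' processing notes, the authors mapped read pairs with STAR 2.5.0b on GRCm38 and obtained counts for GENCODE M13 genes from featureCounts 1.5.0. Libraries were depleted of ribosomal RNA. The strand setting is not given in the sources used here. Symbols, positions, lengths and GC content came from GENCODE M21 for 50376 of 50600 rows.

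Counts were tested with edgeR 4.0.16 in R 4.3.3 (filterByExpr, TMM, quasi-likelihood test), for each tissue apart, and over all 18 samples for the interaction and the comparison of WT groups. Benjamini-Hochberg adjustment covered all genes tested, with a threshold of 0.01. The tests were run on simulated counts with known changes first. Alternatives were RLE and upper-quartile normalization, DESeq2 1.42.0, no filter, a mean CPM of at least 1, a threshold of 0.05, correction for GC content (spline with 5 degrees of freedom per library), other fits, a replicate block, leaving out each mouse, and, chosen after seeing the data, a term for libraries with Ddx3y above 5 CPM. No libraries looked like copies. P-values weigh a difference against the spread between mice. In the fits of all 18 samples the thymic and splenic groups share a common estimate of that spread.

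The 9 genes and the lists were chosen with earlier results of these data known. Named genes were the 9, Il2ra, up to 3 per list, tissue and direction with the largest change past the threshold, and the 3 most correlated genes of each of the 9 whose mean log2 CPM reached 3. Marker lists of Tregs, B, myeloid, CD8 T, NK and erythroid cells and immature thymocytes were summed; immature thymocyte, CD8 T and erythroid sums reached at most 172, 52.6 and 34.6 CPM, all in the thymus. Values of 2 listed genes are not reported here.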

Additional observations from a re-analysis of the deposited data

Results flagged for a closer look

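Within the groups of 4 or 5 mice, 2 values stood apart by Dixon's ratio among 36 groups of values tested, and chance gives about 1 in 20. Jak1 in thymic CD25 KO mouse 5 measured 1089 CPM, where the other 4 measured 897 to 925 CPM. This mouse also had the highest Ptprc (3906 CPM) and the lowest slope on GC content (-0.35) of its group, and without it no call among the 9 thymic genes was lost. Ptpn11 in splenic WT mouse 4 measured 135 CPM, where the other 3 measured 147 to 149 CPM. Without it the splenic log2 fold change of Ptpn11 stayed within 0.44 to 0.52, the range over all omissions. The difference between CD25 KO and WT was not the same in the tissues for Ptpn1 (spleen minus thymus 0.58) and Ptpn11 (0.70), by the interaction test.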

How the results depend on the processing

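The calls for Jak2 and Ptpn11 in the spleen and for Ptpn1 and Ptpn11 between the tissues held under every alternative run. Among these, the threshold of 0.05 could not lose a call made at 0.01. In the thymus, where 2 of the 9 genes were called, 4 were at a threshold of 0.05. After correction for GC content 1 was called, which was Jak3 and not Ptpn1 or Ptprc. None was called with the term for Y-linked reads, chosen after seeing the data (edgeR, Ptpn1 -0.36, adjusted p = 0.0117, and Ptprc 0.51, adjusted p = 0.0166). Leaving out 1 mouse gave 0 to 2. All genes called there (1047) became 2673 with DESeq2, 3951 at 0.05, 2881 in a fit of 18 samples, 636 with the Y-linked term and 371 to 1087 without 1 mouse. With CD25 KO mice 2 and 4 both left out (chosen after seeing the data) they were 2008, the other pathway genes 22 and the difference between tissues 2307. The other pathway genes (14) became 25, 28 and 25 under the first 3 of these and 9 to 17 without 1 mouse. In the spleen, all genes (1651) became 3001 at 0.05, 795 in a fit of 18 samples and 1099 (without WT mouse 3) to 1723 without 1 mouse, and other pathway genes (23) 35, 11 and 17 to 24. The difference between tissues (1305) became 2139 with DESeq2, 3149 at 0.05 and 817 (without splenic CD25 KO mouse 2) to 1489 without 1 mouse. With the longest transcript, 16 of 36 ranks by level were kept. The causes were not tested.

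The sample labels state no pairing of the thymic mice by replicate number. The correlation of same-numbered deviations was 0.14, 0.03, -0.07, -0.24 and -0.05. So few values cannot decide whether the mice were paired, for example by a shared preparation. With a replicate block, 209 genes and 0 of the 9 were called in the thymus (240 and 0 with the GC correction as well).

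Uncalled values near 0 that changed sign were, in the thymus, Tyk2 and Ptpn2 after GC correction (0.090 and -0.23) and with block and GC correction (0.090 and -0.22), and Ptpn2 without 1 mouse (-0.031 to 0.064). In the spleen they were Ptpn6 with upper-quartile scaling (-0.021), Tyk2 after GC correction (0.030), and without 1 mouse Jak1 (-0.028 to 0.017), Tyk2 (-0.049 to 0.038) and Ptpn6 (-0.040 to 0.039). For the difference they were Tyk2 (-0.0039) and Ptpn2 (-0.015) with upper-quartile scaling, Tyk2 after GC correction (-0.060), Jak3 with DESeq2 (0.00055), and without 1 mouse Jak1 (-0.080 to 0.0047) and Jak3 (-0.067 to 0.038). Between WT groups they were Ptpn2 with RLE (-0.00078), DESeq2 (-0.0024), no filter (-0.0093) and the 9 WT samples alone (-0.0043), Jak2 with the Y-linked term (0.033), and without 1 mouse Ptpn2 (-0.060 to 0.051) and Ptprc (-0.0013, without thymic WT mouse 2, to 0.11).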
